A study of Mus musculus with 4 samples.

Results

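Igfbp4, Dapl1, Nsg2, Treml2, Ramp1, Actn1, Dgka, Il6ra and Il6st are 9 genes listed as markers of naive T cells that are neither homing receptors nor transcription factors, out of 19938 genes read from the arrays. Each gene was read from the probe set that is paired with its symbol alone and has the highest mean over the 4 arrays, and each of the 9 had exactly 1 such probe set and no probe set shared with another gene. RNA came from naive CD8 T cells that had been purified by flow cytometry from the spleens of BALB/c mice, with 2 samples from Klf13 knockout (KO) mice and 2 from wild-type (WT) mice, each on its own 1-colour array. The labels used here give neither the age of the mice, nor the surface markers of the sort, nor which part of Klf13 is missing. The probe sets were chosen by their mean log2 value over the 4 arrays, and the genes were selected with their KO and WT values on these arrays already known, so the differences between genotypes in the 9 genes are given as a description.

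Naive T cells circulate between blood and lymphoid organs before they meet antigen, and their expression programme is gradually replaced when they become effector or memory cells. Several of the 9 genes act at the cell surface: Il6ra and Il6st encode the binding chain and the shared signalling chain (gp130) of the interleukin-6 receptor, Ramp1 encodes a partner that turns the receptor Calcrl into a receptor for the neuropeptide CGRP, and Treml2 encodes a receptor of the TREM-like family. Igfbp4 encodes a secreted protein that binds insulin-like growth factors. Of the intracellular products, Dgka is a diacylglycerol kinase that dampens T cell receptor signalling, Actn1 is an alpha-actinin that cross-links actin filaments, Dapl1 is a small relative of the death-associated protein Dap, and Nsg2 is a membrane protein of endosomes that is best known in neurons. Klf13 is a zinc-finger factor of the SP/KLF family, whose members bind CACCC boxes and GC boxes.

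The proximal promoters of the 3 genes with the widest separation between genotypes are shown because Igfbp4 and Dapl1 were higher and Nsg2 was lower in KO cells. Each sequence is the stretch of 250 bases before the transcription start in RefSeq (mouse assembly GRCm38.p6), given 5′ to 3′ on the plus strand. Capitals mark matches on either strand to the CACCC box, to the GC box GGGCGG or to the TATA box with the letters TATAAA, and no capital stretch is shared by 2 matches.
Igfbp4, chr11:99040994-99041243: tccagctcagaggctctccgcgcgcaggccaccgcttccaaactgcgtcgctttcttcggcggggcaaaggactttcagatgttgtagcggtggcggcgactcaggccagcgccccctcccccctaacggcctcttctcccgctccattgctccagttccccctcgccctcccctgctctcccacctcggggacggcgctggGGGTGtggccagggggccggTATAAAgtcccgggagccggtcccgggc
Dapl1, chr2:59484403-59484652: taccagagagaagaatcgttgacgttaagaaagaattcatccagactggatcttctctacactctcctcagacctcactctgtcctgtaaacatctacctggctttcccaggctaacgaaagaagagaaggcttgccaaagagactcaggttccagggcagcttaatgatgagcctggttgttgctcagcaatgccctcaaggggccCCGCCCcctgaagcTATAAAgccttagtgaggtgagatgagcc
Nsg2, chr11:32000169-32000418: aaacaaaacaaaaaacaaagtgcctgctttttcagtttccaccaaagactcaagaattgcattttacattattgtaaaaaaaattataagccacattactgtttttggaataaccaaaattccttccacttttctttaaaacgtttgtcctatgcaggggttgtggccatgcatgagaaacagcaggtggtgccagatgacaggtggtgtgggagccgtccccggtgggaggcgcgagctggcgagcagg
The Igfbp4 window held 1 CACCC match (as GGGTG) that begins 48 bases before the start and 1 TATAAA that begins 28 bases before it. The Dapl1 window held 1 GGGCGG match (as CCGCCC) at 43 bases and 1 TATAAA at 29 bases before the start. The Nsg2 window held none of the 3 motifs, and the window of a second Nsg2 start in the table held 2 CACCC matches and neither of the others. Among all 32851 windows of this length in the table, 52.0% held CACCC, 32.7% held GGGCGG and 12.4% held TATAAA. Over 8 of the 9 genes the table gave 12 windows, and TATAAA occurred in those of 3 genes, the third being 1 of the 4 starts of Dgka. The share of G and C was 69.2% for Igfbp4, 50.0% for Dapl1 and 43.6% for Nsg2, against a median of 52.4% over all windows. A match is a string of letters and not a measured binding site.

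The labels were checked first. Klf13 had log2 values of 5.46 and 5.43 in KO arrays and of 7.01 and 7.15 in WT arrays, a log2 difference of -1.63 (SE 0.10, limma adjusted p = 3.75e-05). The T cell identity of both groups was visible in Cd8a, at 11.1 and 11.1 in KO arrays and 11.3 and 11.1 in WT arrays, and in Cd3e, at 9.50 and 9.57 in KO arrays and 9.45 and 9.48 in WT arrays, while Cd4 lay between 3.47 and 4.07 on all 4 arrays. Of 9 measured genes of T cell and CD8 identity, 0 passed in the limma fit and 1 was lower at an unadjusted p under 0.05, a threshold that 16.6% of all genes met (7.85% higher and 8.75% lower in KO cells). That gene was Thy1, a surface glycoprotein of T cells, with 9.35 and 9.47 in KO arrays and 9.75 and 9.76 in WT arrays (difference -0.34, limma adjusted p = 0.109). Thy1 passed without KO replicate 2 (limma adjusted p = 0.0443) and in 3 other settings (0.00213 to 0.588 over all 11). The adhesion receptor gene Cd2 differed by -0.19 (limma adjusted p = 0.327), with both KO arrays below both WT arrays. Arrays correlated across genes with r of 0.994 to 0.998. KO replicate 2 was about as close to WT replicate 2 (r = 0.9960) as to KO replicate 1 (r = 0.9966). KO replicate 1 stood somewhat apart, with an upper quartile of all probe sets of 6.52 against 6.63 in KO replicate 2 and 6.67 and 6.66 in the WT arrays. Over all genes 448 (2.25%) passed the limma test at an adjusted p under 0.05, of which 53.1% were higher in KO cells. That share of higher genes was 70.6% after a further quantile normalization and 21.8% after each array was centred on its median.

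Igfbp4 and Dapl1 were higher and Nsg2 was lower in KO cells, and the other 6 genes differed by at most 0.20 on the log2 scale. In the fit over all genes 3 of the 9 passed, 2 higher and 1 lower, beside 2.25% of all genes in either direction (1.19% higher and 1.05% lower). Nothing is read from that count, because the list was made with this contrast known. The groups did not overlap for 4 of the 9 genes, 2 higher and 2 lower in KO arrays, beside 47.6% of all genes. The median difference of the 9 genes was 0.10, against 0.015 over all genes. In bulk RNA, fewer cells that express a gene and less RNA per cell cannot be told apart.

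**Figure D1:**
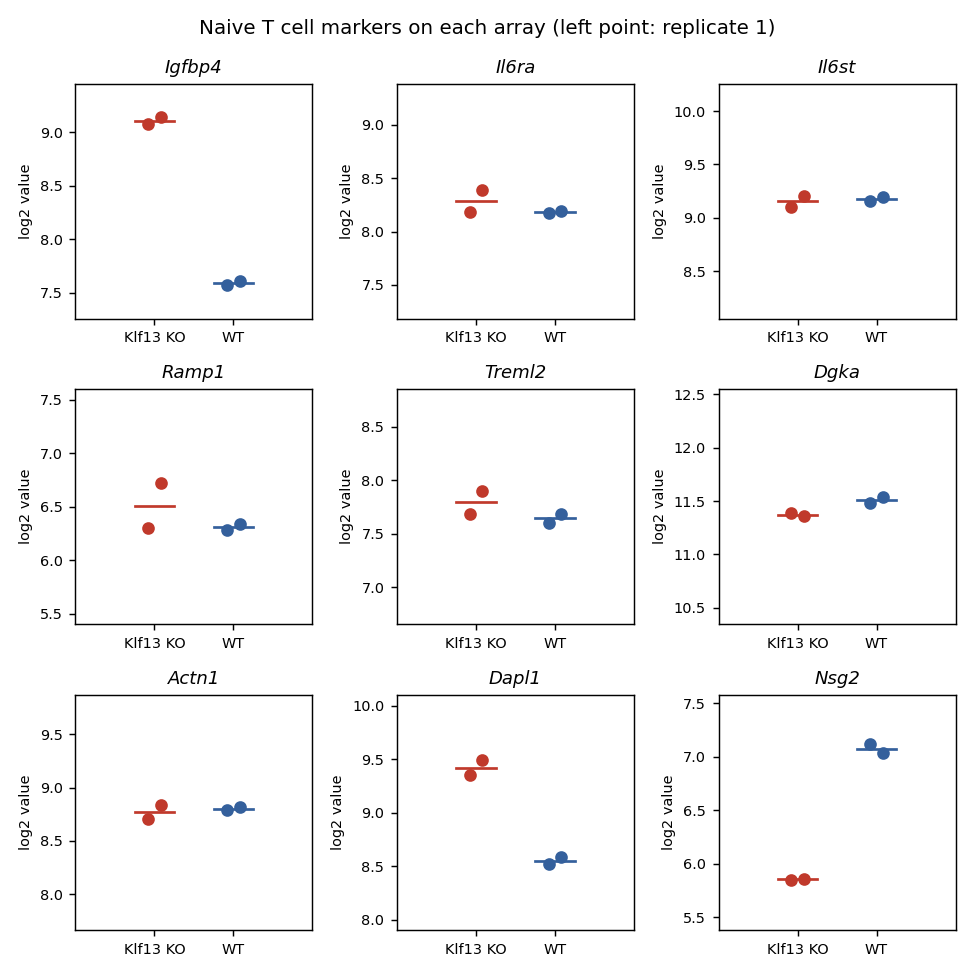
Log2 probe-set values of the 9 naive T cell markers on each array, Klf13 KO on the left and WT on the right of each panel. Points are single arrays (replicate 1 on the left of each pair), lines are means of 2 arrays, and every panel spans the same range of log2 values. Igfbp4, Dapl1 and Nsg2 separate widely, and Dgka separates by 0.09.

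Igfbp4 had log2 values of 9.08 and 9.14 in KO arrays, against 7.57 and 7.61 in WT arrays. Both KO arrays lay above both WT arrays, with 1.47 between the nearest arrays of the groups. The log2 difference was 1.52 (SE 0.09), or 2.86-fold higher, and 9 of the 19938 genes had a higher log2 difference. The KO arrays differed from each other by 0.06 and the WT arrays by 0.04.

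Dapl1 had 9.35 and 9.49 in KO arrays, against 8.52 and 8.59 in WT arrays. The groups were again apart, by 0.76 between the nearest arrays. Dapl1 was 1.83-fold higher in KO cells (log2 difference 0.87, SE 0.10), and 45 genes had a higher log2 difference. It no longer passed when all 35556 probe sets were tested singly, and it passed in the 10 other settings.

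Nsg2 moved the other way. Its values were 5.85 and 5.86 in KO arrays, against 7.12 and 7.03 in WT arrays. Both KO arrays lay below both WT arrays, by 1.17 between the nearest. Nsg2 was 2.33-fold lower in KO cells (log2 difference -1.22, SE 0.09), and 10 genes had a lower log2 difference. The 2 KO arrays differed by 0.01, which lies at percentile 5.26 of such differences over all genes.

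Among the receptors, the interleukin-6 binding chain Il6ra had 8.18 and 8.39 in KO arrays and 8.17 and 8.19 in WT arrays. The lower KO array lay between the WT arrays, and the difference of 0.10 had a 95% interval from -0.12 to 0.33. The shared chain Il6st had 9.10 and 9.21 in KO arrays and 9.16 and 9.19 in WT arrays. The WT pair lay inside the KO pair, with a difference of -0.020 and an interval from -0.23 to 0.19.

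Ramp1 had 6.30 and 6.72 in KO arrays and 6.28 and 6.33 in WT arrays. Only KO replicate 2 was high: the KO arrays differed from each other by 0.42, more than for 97.0% of all genes. The difference between genotypes was 0.20 (interval -0.09 to 0.49), and without KO replicate 2 it was -0.0082. Treml2 had 7.68 and 7.90 in KO arrays and 7.60 and 7.68 in WT arrays, where KO replicate 1 lay just under the higher WT array. Its difference was 0.15 (interval -0.08 to 0.38).

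Of the intracellular products, Dgka had 11.39 and 11.36 in KO arrays and 11.48 and 11.53 in WT arrays. Both KO arrays lay below both WT arrays by 0.09, but the difference of -0.13 (interval -0.34 to 0.07) did not pass. Actn1 had 8.70 and 8.83 in KO arrays and 8.79 and 8.81 in WT arrays. The WT pair lay inside the KO pair, and the difference was -0.034 (interval -0.25 to 0.18). The intervals of these 6 genes leave room for differences of up to 0.49, so they are not shown to be alike in the genotypes.

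**Figure D2:**
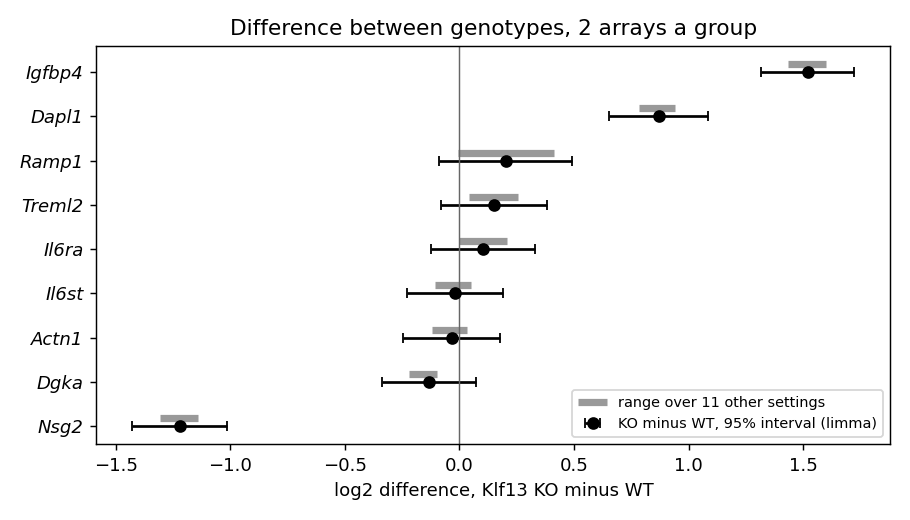
Log2 difference between Klf13 KO and WT arrays for each marker (points) with the 95% interval of the limma fit (bars, 2 arrays a group), and the range of the difference over 11 other settings (grey bands). The intervals of Igfbp4, Dapl1 and Nsg2 stay clear of 0, and those of the other 6 genes include it.

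The array values were known when the list was drawn up, so the spread within a genotype is also given as a description. Of the 9 genes, 8 were lower in KO replicate 1 than in KO replicate 2, with a median difference of -0.13. Among the 9969 genes with the higher mean values 79.9% were lower in KO replicate 1, with a median of -0.11, which is the same direction as in the markers. In the WT pair 8 of the 9 were lower in replicate 1 as well, by a median of -0.036, where 48.7% of the brighter genes were lower. Igfbp4 and Nsg2 differed by at most 0.085 within either genotype. Set against all genes, their difference between genotypes was among the largest in each direction, as the plot of difference against mean value shows.

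**Figure D3:**
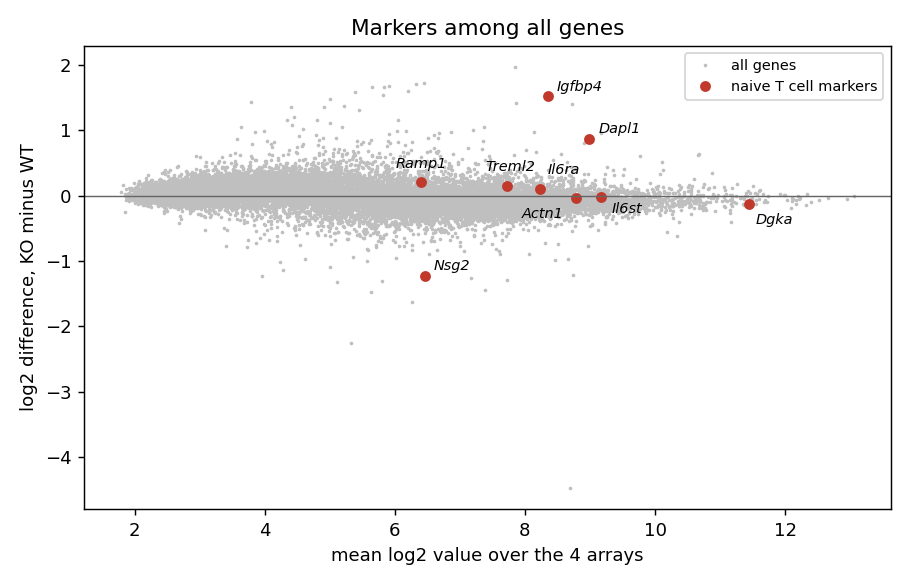
Log2 difference between Klf13 KO and WT arrays (vertical axis) against the mean log2 value over the 4 arrays (horizontal axis) for 19938 genes (grey), with the 9 markers in red. Igfbp4 and Dapl1 lie at the upper edge of the cloud, Nsg2 at the lower edge, and the other 6 markers inside it.

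Among the other naive T cell genes, Cd28 fell and none rose. Over all genes, 1.05% were called lower and 1.19% higher in KO cells. Of 11 measured homing receptors and transcription factors of naive cells, 0 passed in the limma fit, with 0 higher and 3 lower at an unadjusted p under 0.05 (7.85% and 8.75% of all genes), and the list median was -0.049 beside 0.015 for all genes. The interleukin-7 receptor chain Il7r had 10.06 and 10.13 in KO arrays and 10.44 and 10.45 in WT arrays (difference -0.35, limma adjusted p = 0.0935). Il7r passed without KO replicate 2 (limma adjusted p = 0.0475) and in 4 other settings. The lymph node homing receptor Ccr7 had a difference of -0.27 (limma adjusted p = 0.181). Of 7 other surface and signalling genes, the costimulatory receptor Cd28 fell, at 8.11 and 8.17 in KO arrays against 8.85 and 8.92 in WT arrays (difference -0.74, limma adjusted p = 0.00309), and 6 did not pass (median -0.07).

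Genes of memory and effector CD8 T cells moved in both directions. With 25 genes measured, 6 fell and 4 rose, beside 1.05% lower and 1.19% higher of all genes. The remaining 15 failed the test, and the list median was 0.13. The log2 difference was -4.47 for the granule membrane protein gene Nkg7, -1.45 for the T-box factor gene Eomes, -0.97 for the chemokine receptor gene Cxcr3, -0.96 for the granzyme gene Gzmb and -0.89 for Prf1, which encodes perforin. Il18rap also fell (-0.42). Of the 4 genes that rose, Anxa2, an annexin gene, was higher by 0.65, Ccl5 by 0.60, Anxa1 by 0.44 and Id2 by 0.44. Among the genes named here both programmes held both directions, but Igfbp4, Dapl1 and Nsg2 were listed with this contrast known. Of the other naive T cell genes, 0 of 11 and 0 of 7 rose in the limma fit. The rise on the naive side thus rests on the listed markers alone. Nsg2 and Cd28 of the naive lists were lower and Igfbp4 and Dapl1 higher in KO arrays. Nkg7 and Eomes of the memory list were lower and Anxa2 and Ccl5 higher.

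Of 15 genes of thymocytes and recent thymic emigrants, the integrin gene Itgae rose, at 7.61 and 7.79 in KO arrays against 6.70 and 6.69 in WT arrays (difference 1.01, limma adjusted p = 6.29e-04). The other 14 did not pass, and the median was 0.11. Over all genes, 1.19% were called higher in KO cells. At an unadjusted p under 0.05, 5 of the 15 were higher and 1 was lower, beside 7.85% and 8.75% of all genes. In all, 12 of the 15 had a positive difference, while the median over all genes was also positive, at 0.015. Nothing is read from that count. The part of such cells in the values was not tested. Itgae is also carried by peripheral CD8 T cells.

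Among the pathway partners of the 9 genes, Cish (1 of 24 in its list) and Ramp3 (1 of 7) passed, beside 2.25% of all genes. These calls are no result about the pathways. Of 17 measured genes of the insulin-like growth factor axis around Igfbp4, 0 passed in the limma fit and 1 was higher at an unadjusted p under 0.05, beside 16.6% of all genes in either direction, so this count is no result about the axis (median 0.11). That gene was Stc2, a stanniocalcin, with 4.81 and 5.11 in KO arrays and 4.52 and 4.58 in WT arrays (difference 0.41, limma adjusted p = 0.112, but 0.0449 without KO replicate 1). The receptor gene Igf1r differed by 0.24 (limma adjusted p = 0.376). The other 6 genes of the IGF-binding protein family lay between 3.40 and 4.75 on all arrays.

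Of 24 measured genes of interleukin-6 and gp130 signalling, 1 rose and 23 did not pass (median 0.059). The signalling inhibitor gene Cish had 5.51 and 5.51 in KO arrays against 4.96 and 5.04 in WT arrays (difference 0.51, limma adjusted p = 0.0218). Cish did not pass without KO replicate 1 (difference 0.51, limma adjusted p = 0.0626) or without WT replicate 1 (0.46, limma adjusted p = 0.201). The 24 differences ran from -0.22 to 0.51.

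Among 7 genes of the CGRP and adrenomedullin receptors, Ramp3, a paralog of Ramp1, rose and 6 did not pass (median 0.0027). Ramp3 had 4.98 and 5.05 in KO arrays against 4.61 and 4.55 in WT arrays (difference 0.43, limma adjusted p = 0.0433). Its call was lost without KO replicate 1 (limma adjusted p = 0.0734), WT replicate 1 (0.211) or WT replicate 2 (0.312) and when arrays were centred on their medians (0.0674). Calcrl, the receptor that Ramp1 joins, had 6.52 and 6.71 in KO arrays and 6.53 and 6.54 in WT arrays (difference 0.08, turning to -0.0048 with centred arrays and to -0.011 without KO replicate 2).

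Of 13 genes of diacylglycerol signalling around Dgka, 0 passed in the limma fit, with 1 higher and 1 lower at an unadjusted p under 0.05, near the 16.6% of all genes (median 0.041). Rasgrp1, which diacylglycerol recruits to activate Ras, differed by 0.31 (limma adjusted p = 0.146), the kinase gene Dgkq by -0.22 (0.296) and Dgkz, the other main kinase of T cells, by 0.12 (0.591). Of 13 genes of alpha-actinins and their partners, 0 passed in the limma fit and 3 were higher at an unadjusted p under 0.05, beside 7.85% of all genes (median 0.054), with Vim at 0.33 (limma adjusted p = 0.114) and Pdlim4 at 0.29 (0.182).

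Of 7 measured genes of the TREM family and its proposed ligand, 0 passed in the limma fit and 1, Treml1, was higher at an unadjusted p under 0.05, beside 7.85% of all genes (difference 0.39, limma adjusted p = 0.0887), with Trem3 at 0.16 (0.492) and a median of 0.12. Of 3 paralogs, 0 passed in the limma fit and 1, Dap, was higher at an unadjusted p under 0.05, beside 7.85% of all genes. Dap, the relative of Dapl1, differed by 0.24 (limma adjusted p = 0.246), Nsg1, the nearest relative of Nsg2, by 0.14 (0.551), and the median was 0.14. Nsg1 had 4.14 and 4.04 in KO arrays and 4.04 and 3.86 in WT arrays.

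**Figure D4:**
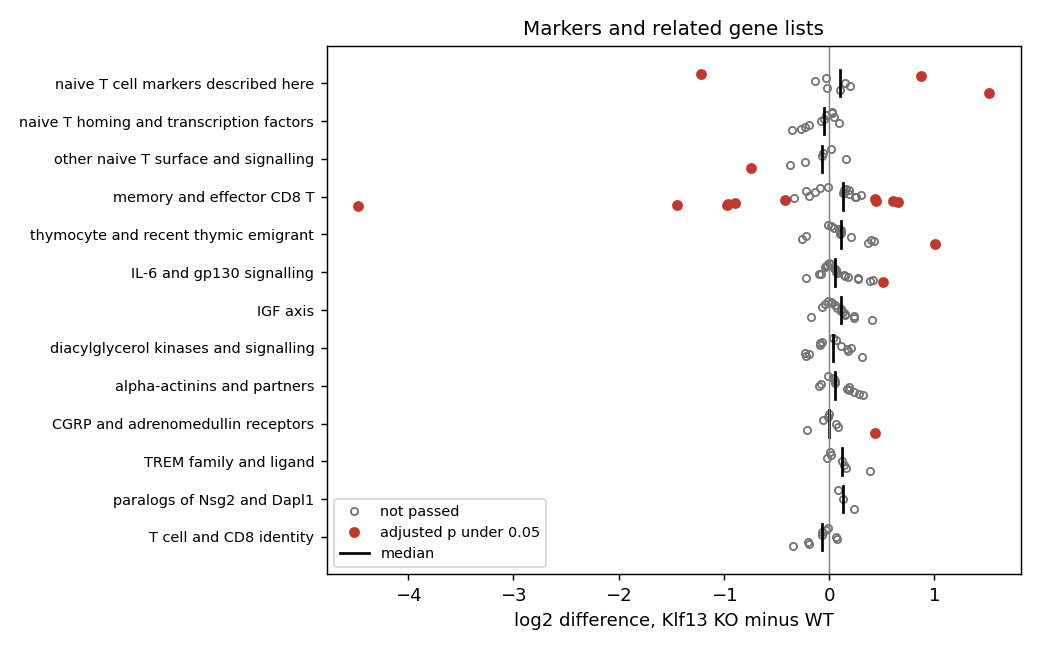
Log2 difference between Klf13 KO and WT arrays for the 9 markers (top row) and for the genes of 12 related lists, 1 point a gene. Filled points passed the limma test at an adjusted p under 0.05 over all genes, open points did not, and vertical bars are list medians. Nkg7 at -4.47 is the farthest point.

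Some markers of other blood cells rose in KO arrays beside these differences, while most did not pass. Over all genes, 1.19% were called higher and 1.05% lower in KO cells. Over 15 neutrophil markers, 4 rose (Mpo, Elane, Ctsg and Prtn3) and 0 fell, and the other 11 differed by -0.031 to 0.33. The mean log2 value of the 15 was 4.48 and 4.45 in KO arrays against 3.81 and 3.92 in WT arrays. Over 13 B cell markers, 2 rose, 0 fell and 11 did not pass (-0.09 to 0.51), with means of 5.30 and 5.31 in KO arrays against 5.05 and 5.07 in WT arrays. Over 15 myeloid and dendritic cell markers, 4 rose, 0 fell and 11 did not pass (-0.34 to 0.56), with means of 5.20 and 5.37 in KO arrays against 4.97 and 4.92 in WT arrays. Of those 11, the macrophage marker Cd68 (-0.34, limma adjusted p = 0.189) and the cathepsin gene Ctss (-0.18, 0.392) were the only negative differences. Over 14 stromal and endothelial markers, 0 passed in the limma fit, with 4 higher and 1 lower at an unadjusted p under 0.05 (7.85% and 8.75% of all genes), and means of 4.36 and 4.24 in KO arrays against 4.20 and 4.14 in WT arrays. For comparison with these means, the median over all genes was 4.71 and 4.66 in KO arrays against 4.59 and 4.61 in WT arrays. Small differences between list means are thus not set apart from a shift of whole arrays. The lowest value in the table was 1.34, so no marker stood at 0. The part of these cells in the values of Igfbp4, Dapl1, Nsg2 and the other markers was not tested.

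The genes whose profiles over the 4 arrays came closest to each of the 3 widely separated markers were found by Euclidean distance, after each gene's own mean was taken off. Nearest to Igfbp4 were Elane, which encodes neutrophil elastase (distance 0.11), Ddit4, an inhibitor of mTOR signalling (0.14), and the progenitor surface gene Cd34 (0.19). Elane had 6.92 and 7.09 in KO arrays and 5.40 and 5.41 in WT arrays. Nearest to Dapl1 were Tdrd7 (0.07), the Wnt secretion gene Wls (0.09) and the receptor gene Gpr83 (0.09), with Wls at 7.09 and 7.21 in KO arrays and 6.18 and 6.21 in WT arrays. Nearest to Nsg2 were Ms4a4c (0.15), Arhgap19 (0.17) and Fam169b (0.17), with Ms4a4c at 8.23 and 8.04 in KO arrays and 9.42 and 9.27 in WT arrays. With 4 arrays, such likeness reflects mainly the size of the difference between genotypes.

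None of the 9 genes lies on chromosome 7, which carries Klf13. Igfbp4 and Nsg2 are both on chromosome 11 and differ in opposite directions. The 2 nearest measured genes on each side of every marker, in the RefSeq order of GRCm38.p6, gave 36 genes, a comparison chosen after the values were seen. In the limma fit 0 of the 36 passed, and 5 had an unadjusted p under 0.05, near the 16.6% of all genes. Their differences ran from -0.28 to 0.32, all smaller than those of Igfbp4, Dapl1 and Nsg2. Tns4 and then Ccr7 follow Igfbp4 on one side, and Tns4 had 4.22 and 3.97 in KO arrays and 3.71 and 3.85 in WT arrays (difference 0.32, limma adjusted p = 0.194, but 0.0480 without KO replicate 2).

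**Figure D5:**
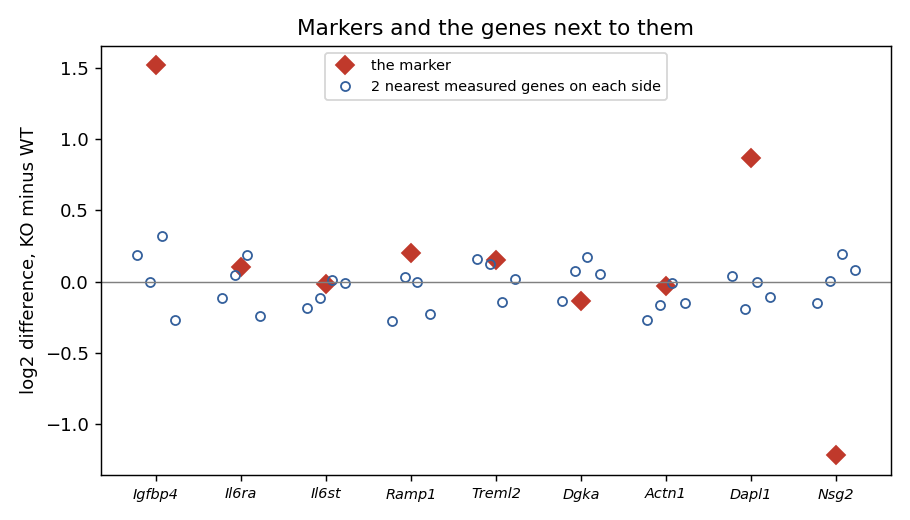
Log2 difference between Klf13 KO and WT arrays for each marker (red diamonds) and for the 2 nearest measured genes on each side of it (blue circles). The circles lie between -0.28 and 0.32, and the diamonds of Igfbp4, Dapl1 and Nsg2 lie outside that range.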

How the data were processed

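The deposited log2 values of 35556 probe sets on 4 arrays were made by the authors with RMA and Partek, per the submitters' processing notes (no versions). RMA is meant to equalise arrays, so a shift of most genes one way may have been removed, and differences of dim genes are compressed. The deposited arrays were not fully equal: upper quartiles ran from 6.52 to 6.67. Centring each array on its median moved the median difference between genotypes by -0.086. Per the labels' protocols, 200 ng of RNA with an integrity number above 9 was amplified with random primers. GEO's platform annotation gave 21789 probe sets 1 symbol, 1621 several and 12146 none. Symbols were updated through RefSeq (GRCm38.p6, 21698 matched). The files name no build. The test of KO against WT was a moderated linear model on genotype alone (limma 3.58.1 and R 4.3.3, two-sided, Benjamini-Hochberg adjustment over 19938 genes, threshold 0.05) and tested on simulated data. With 2 arrays a group, which the labels do not call separate animals, p-values cover only how far these samples vary, possibly for technical reasons alone. The members and lists were chosen with earlier results of these data known. Named were the 9 markers, Klf13, list genes that passed (up to 6, by p, otherwise the 2 with the smallest p) and the nearest profiles. Dgkz, Calcrl, Tns4, Cd8a, Cd3e, Cd4, Cd68, Ctss, Ccl5, Anxa1, Id2 and Il18rap were named after their values were seen. Probe sets were not compared with each other in level. No detection calls were used.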

Additional observations from a re-analysis of the deposited data

How the results depend on the processing

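The 3 calls among the 9 markers held in 10 of 11 other settings. With all probe sets tested singly there were 2, Dapl1 being lost at a limma adjusted p of 0.0905. The followed genes all had the same SE with a replicate block (0.115), and likewise without WT replicate 1 or WT replicate 2 (0.166). A gene's own spread does not enter the p-values of those settings, so their calls rest on the size of the difference alone. The difference ranged from 1.43 to 1.60 for Igfbp4, from 0.78 to 0.94 for Dapl1 and from -1.31 to -1.14 for Nsg2. Signs of small differences turned: Actn1 was 0.030 and Il6st 0.049 after a further quantile normalization, and with 1 array left out the lowest and highest values were -0.099 and 0.032 for Actn1, -0.073 and 0.032 for Il6st, -0.0017 and 0.21 for Il6ra, -0.0082 and 0.41 for Ramp1 and -0.011 and 0.17 for Calcrl; Calcrl was -0.0048 with arrays centred on their medians. Genes called numbered 448, against 39 with all probe sets tested singly, 1088 with centred arrays and 831 with a variance trend and robust moderation. Listed genes called numbered 32, against 5 with all probe sets. With the replicate number as a block the counts were 1187 and 58. Deviations of same-numbered arrays correlated with r = 0.0074 across genes. That value cannot show whether same-numbered samples were handled together, so a pairing is neither shown nor excluded. With 1 array left out the counts ran from 264 to 1536 and from 23 to 42, the lone array being assumed to vary like the others: genes called numbered 264 without KO replicate 1, 1536 without KO replicate 2 and 277 without WT replicate 1. Ccl5, Anxa1, Id2 and Il18rap were not followed over the other settings. Of the other named T cell and pathway genes, Cd28, Cxcr3, Gzmb, Prf1, Anxa2, Itgae, Cish and Ramp3 did not pass with all probe sets tested singly. The same held for Gpr83, Ikzf2, Cxcr5 and Tnfsf8. Ccr7, Il7r, Rasgrp1, Stc2, Thy1, Treml1 and Vim, which did not pass in the main fit, passed in at least 1 other setting. The cause of these changes was not tested. The number of arrays limits the precision.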

Other observations

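Further cell type lists were measured beside the markers. The counts below stand beside 1.19% of all genes called higher and 1.05% called lower in KO cells. Of 10 regulatory and CD4 T cell markers, 2 rose and 2 fell: the receptor gene Gpr83 (log2 difference 0.92) and the Ikaros family gene Ikzf2 (0.59) rose, and the follicular homing receptor gene Cxcr5 (-1.13) and Tnfsf8 (-0.55) fell, with a list median of 0.28. Of 8 markers of progenitors, platelets and erythroid cells, Cd34 (1.66), Itga2b (0.51) and Pf4 (0.51) rose and 5 did not pass (median 0.38). Of 8 NK cell markers, Cd244a rose (0.55) and 7 did not pass (median 0.13). Among the neutrophil, B cell and myeloid lists the genes that rose were Mpo (1.97), Elane (1.60), Ctsg (1.70), Prtn3 (1.71), Ighm (0.80), Cd74 (0.53), Lyz2 (1.15), Csf1r (0.58), Mpeg1 (0.84) and Tyrobp (0.62), with list medians of 0.23, 0.24 and 0.39. Of the genes called in these lists, only Mpo, Elane and Cd34 still passed with all probe sets tested singly. The calls of Cd244a, Csf1r and Pf4 were lost without WT replicate 1 (limma adjusted p = 0.115, 0.0791 and 0.116), and that of Pf4 also without WT replicate 2 (0.0895). Those of Itga2b and Tyrobp were lost without WT replicate 1 (0.372 and 0.238), KO replicate 1 (0.0953 and 0.144) or KO replicate 2 (0.0521 and 0.0501). Those of Cd74 and Tnfsf8 were lost without KO replicate 1 (0.0650 and 0.0591) or WT replicate 1 (0.0561 and 0.0620), and that of Cd74 also without WT replicate 2 (0.0873). The stromal genes with the smallest p, Pdgfrb (0.33) and Vwf (0.33), did not pass (limma adjusted p = 0.109 and 0.114).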
